A study of Mus musculus with 10 samples.

Results

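The proteins that copy the genome are encoded by the 48 DNA replication genes described here, measured as messenger RNA in mouse small cell lung cancer cells. The genes were taken by symbol from a list of replication factors, with 1 array probe per symbol, the brightest of those well above background on all 5 arrays of a group. All 48 were found among the 13200 genes that could be tested, and all were well above background on all 10 arrays, so the filter on dim probes removed none of them. The 48 genes were represented on the array by 74 probes, and no value was missing.

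The samples were 10 cell lines, each expanded from a picked clone of a tumour without the neuroendocrine state, and titled Mes (5 lines) or Epi (5 lines). The labels do not spell these names out. All 10 lines carry the genotype label RbL/L, Trp53L/L, in which L by convention marks an allele of a tumour suppressor gene flanked by loxP sites. All were grown in RPMI1640 with 10% FBS and received no treatment. Whether the clones share a tumour, and what drove recombination, is not given in the labels, and p-values cover no more than the variation among these 10 lines. Mes2 and Mes3 had nearly the same profile, with a correlation of 0.986 across probes, and the remaining pairs of Mes lines had 0.948 to 0.969. The pairs among Epi3, Epi4 and Epi5 had 0.981 to 0.984, and the remaining Epi pairs 0.959 to 0.969. Slide 1 held Epi1, Epi3, Epi4 and Epi5, slide 3 held Mes1, Mes2 and Mes5, and only slide 2 held both kinds, Mes3, Mes4 and Epi2. The neuroendocrine genes Neurod1 and Insm1 were not well above background on any array, nor were the epithelial genes Epcam and Esrp1, the leukocyte genes Lyz2 and Itgam or the endothelial genes Pecam1 and Cdh5. All 8 mesenchymal markers were above background on all arrays of both groups, and 0 of 8 epithelial markers were. The groups still differed in these markers. Krt7, Krt18 and Krt19 were above background on all 5 Epi arrays, and on 1, 4 and 2 Mes arrays. Krt7 was lower in Mes lines (log2 difference -5.67, adjusted p 0.000344, limma), and Krt18 and Krt19 did not pass. The mesenchymal markers Col1a1, Col1a2 and Zeb1 were also called lower in Mes lines (-7.41, -8.31 and -0.56), and the others did not pass. On each array 24869 to 26515 of 41174 probes (60.4% to 64.4%) were well above background, and no spot was saturated. With 5 arrays per group, the number of arrays limits the precision of every value.

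Replication starts when the origin recognition complex, Cdc6 and Cdt1 load the MCM helicase ring on DNA. The kinase Cdc7 with Dbf4, cyclin E with its kinase, and the factors Mcm10, Cdc45 and GINS then turn the ring into a moving helicase, behind which primase, the polymerases, the sliding clamp and the ligase build the new strands. Many of these genes are switched on together before S phase by E2F transcription factors, which the retinoblastoma protein holds back.

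Promoter sequences were matched by symbol in RefSeq (GRCm38.p6), as windows from 250 bases before to 50 bases after the start of the gene, and 39 of the 48 genes had at least 1 window. The entries for Gmnn, Mcm4, Gins1, Gins2, Gins4, Ccne2, Prim2, Pole and Rfc2 were missing. The E2F letters TTTGGCGC or TTTCCCGC, read on either strand, were found in 12 of 39 genes (30.8%), against 486 of 27025 genes with a promoter (1.80%) and 3.36% of the tested genes with one. The 150 bases before the start are shown for examples of genes with these letters upstream of the start, with the matches in capitals. They are from the ring (Mcm6), the origin complex (Orc3), ring loading (Cdc6) and GINS (Gins3). Mcm5, Mcm7 and Pola1 also had a match upstream of the start and are not shown. The same bases are shown for Cdc45, the gene with the largest difference between the groups, whose window held no match. Positions are on GRCm38.p6 and each sequence reads in the direction of its gene. Mcm6 lies at chr1:128359706-128359855 on the minus strand, with matches that begin 110 and 47 bases before the start. Orc3 lies at chr4:34614943-34615092 on the minus strand, with a match 41 bases before the start. Cdc6 lies at chr11:98908001-98908150 on the plus strand, with a match 138 bases before the start. Gins3 lies at chr8:95633409-95633558 on the plus strand, with a match 41 bases before the start. Cdc45 lies at chr16:18811973-18812122 on the minus strand.
Mcm6: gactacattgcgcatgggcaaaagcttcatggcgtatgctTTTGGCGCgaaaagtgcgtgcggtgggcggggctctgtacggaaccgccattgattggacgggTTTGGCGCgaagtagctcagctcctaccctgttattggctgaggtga
Orc3: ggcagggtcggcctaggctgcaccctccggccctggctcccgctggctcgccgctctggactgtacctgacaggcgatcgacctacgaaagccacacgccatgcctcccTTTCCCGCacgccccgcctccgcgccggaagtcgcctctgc
Cdc6: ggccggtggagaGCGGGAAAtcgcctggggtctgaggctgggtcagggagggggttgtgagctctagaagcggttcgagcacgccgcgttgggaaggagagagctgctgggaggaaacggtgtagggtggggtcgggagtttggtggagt
Gins3: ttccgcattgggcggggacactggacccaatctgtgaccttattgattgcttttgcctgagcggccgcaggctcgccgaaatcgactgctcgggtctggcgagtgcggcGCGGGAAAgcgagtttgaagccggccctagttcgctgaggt
Cdc45: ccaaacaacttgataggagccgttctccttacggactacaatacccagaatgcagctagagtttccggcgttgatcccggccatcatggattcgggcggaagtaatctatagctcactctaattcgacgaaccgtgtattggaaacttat
Of the genes that were higher in Mes lines, 2 of 8 with a window held E2F letters (Orc3 and Cdt1, the latter after its start). Neither of the 2 lower genes did, and 10 of the 29 genes that did not pass the test held them. The letters CCAAT, bound by NF-Y, were found in 23 of 39 genes (59.0%), against 41.1% of all genes and 43.2% of the tested genes with a promoter. The letters TTTGAA or TTCGAA, the CHR element of late cell cycle genes, were found in 9 of 39 (23.1%). This stands against 21.7% of all genes and 16.4% of the tested genes with a promoter. A match describes the letters only.

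The comparison of Mes with Epi lines called 11 of the 48 replication genes (22.9%) at an adjusted p under 0.05 by limma, beside 28.4% of all 13200 genes. Of these, 9 were higher in Mes lines (Orc3, Cdt1, Gmnn, Mcm10, Cdc45, Cdc7, Dbf4, Rpa2 and Rpa3), where 15.7% of all genes were, and 2 were lower (Ccne1 and Chaf1b), where 12.7% were. The share of replication genes called is near that of all genes, so the count is no result about replication genes. Differences are given on the log2 scale as Mes minus Epi, where 1 unit is 2-fold. Their median was 0.21, against 0.03 for all genes, and 34 of 48 were positive. In size they were smaller than those of most genes, with a median of 0.26 without regard to sign against 0.40. Only Cdc45 reached 2-fold (1 of 48, or 2.08%), against 2331 genes in all (17.7%). For 5 of the 48 genes no Mes value overlapped an Epi value, against 2497 of all 13200 genes (18.9%), a larger share. In 33 of the 37 genes that did not pass (89.2%), the 95% interval of the difference lay within 2-fold either way, against 72.6% of all such genes. In RNA from whole cultures, fewer cells in S phase and less of an RNA per cell cannot be told apart.

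The count depended on how the values were scaled and which lines entered. After scaling to the 75th percentile instead of quantiles, 5 genes were higher, where 14.4% of all genes were, and 4 lower, where 15% were, and the median difference was 0.06. With the lines of nearly the same profile averaged first, Cdc45 alone passed, beside 7.49% of all genes. With slide as a fixed block, which sets Epi2 alone against Mes3 and Mes4, 0 replication genes passed in limma (2 had an unadjusted p under 0.05), beside 0.735% of all genes, and the median difference was -0.10. On the other slides, slide and group cannot be told apart. Leaving out Mes3 gave 6 genes, Mes4 gave 5, Epi3 gave 4, Epi4 gave 5 and Epi5 gave 7. Orc3, Cdc45, Cdc7 and Chaf1b passed whichever line was left out.

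**Figure D1:**
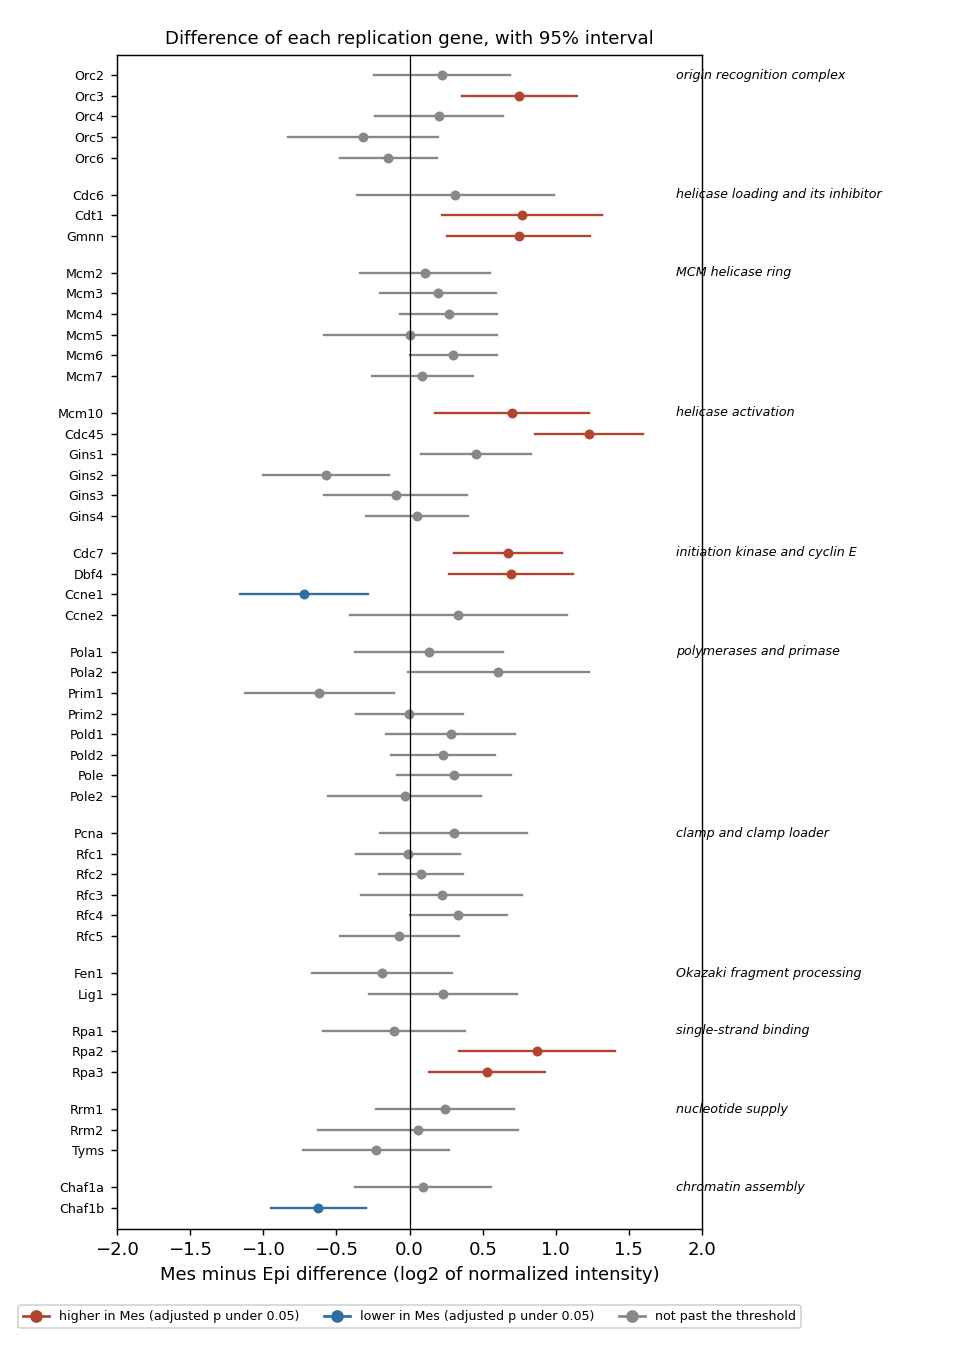
Difference between Mes and Epi lines for each of the 48 replication genes, by role (x axis, Mes minus Epi on the log2 scale of normalized intensity, points with 95% intervals from limma, n = 5 lines each). The 9 genes higher in Mes lines are in red and the 2 lower in blue, and the 6 genes of the MCM ring lie between 0.01 and 0.30.

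The origin recognition complex marks the places where replication can start, and 1 of its 5 members passed. Orc3 values were 10.00, 10.38, 10.32, 10.87 and 10.43 in Mes1 to Mes5 and 9.56, 9.94, 9.36, 9.63 and 9.76 in Epi1 to Epi5 (log2 of normalized intensity). The groups did not overlap, and the highest Epi line, Epi2, came close to the lowest Mes line, Mes1. The difference of 0.75 (SE 0.18) had an adjusted p of 0.0121 in limma. A second tested probe of Orc3 differed by 0.72, with an adjusted p of 0.00835, and a dimmer tested probe by 0.59 without passing (adjusted p 0.0652). The main probe maps to chr4:34518239-34519008 on mm9, and the median tested gene on chromosome 4 was higher in Mes lines by 0.55, which leaves 0.20 for Orc3. Differences of the other members ran from -0.32 for Orc5, an ATP-binding subunit, to 0.22 for Orc2. The levels of Orc4 differed by 0.20 on the brightest probe, while its other probes gave -0.19, -0.49 and 0.07.

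Cdc6 and Cdt1 bring the MCM ring to the origin and geminin, the product of Gmnn, holds Cdt1 back after S phase has begun. Cdt1 values were 13.94, 15.03, 14.48, 14.41 and 14.08 in Mes1 to Mes5 and 13.93, 14.16, 13.50, 13.26 and 13.26 in Epi1 to Epi5. The groups overlapped, since Epi2 lay above Mes1 and Mes5, and Mes2 stood highest. The difference was 0.77 (SE 0.25, adjusted p 0.0415, limma). Values of Gmnn were 13.84, 14.03, 14.35, 14.49 and 14.32 in the Mes lines and 13.93, 13.92, 13.28, 13.14 and 13.03 in the Epi lines. Epi1 and Epi2 lay above Mes1, while Epi3, Epi4 and Epi5 lay below all Mes lines. Gmnn differed by 0.75 (SE 0.22, adjusted p 0.0300, limma). Both genes missed the threshold after 75th percentile scaling, with differences of 0.57 each and adjusted p-values of 0.0997 and 0.0917, and each passed in 4 of the 10 fits that leave out a line. Cdc6 was among the genes with the widest spread, at 10.18, 9.18, 9.65, 10.48 and 10.05 in Mes lines and 9.89, 10.39, 9.30, 9.31 and 9.07 in Epi lines. Its difference of 0.31 did not pass (adjusted p 0.465, limma), and a dimmer probe gave -0.31.

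The ring itself, made of Mcm2 to Mcm7, showed no called difference. All 6 differences were positive, from 0.01 for Mcm5 to 0.30 for Mcm6, but after 75th percentile scaling Mcm5, Mcm6 and Mcm7 were at -0.09, -0.0017 and -0.14, and the other 3 between 0.01 and 0.07. The 95% intervals ran from -0.59 to 0.60 over the 6 genes, so a 2-fold change of any member lay outside its interval. Mcm2 values were 12.02, 12.70, 12.50, 12.55 and 12.30 in Mes lines and 12.45, 12.84, 12.32, 11.95 and 11.98 in Epi lines. The highest of all 10 lines was Epi2 and the lowest Epi4, so the groups overlapped (difference 0.11, SE 0.20, adjusted p 0.719, limma). Mcm6 values were 15.69, 15.95, 16.03, 16.07 and 15.97 in Mes lines and 15.50, 15.84, 15.84, 15.50 and 15.55 in Epi lines. Only Mes1 fell within the Epi range, and the difference was 0.30 (SE 0.13, adjusted p 0.118, limma). Mcm5 was spread widest within Epi lines, at 12.98, 13.59, 12.77, 12.49 and 11.90, while the Mes lines held to 12.68, 12.63, 12.64, 12.80 and 13.01. Epi2 stood highest and Epi5 lowest, on either side of all Mes lines.

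The loaded ring is activated by Mcm10, Cdc45 and the 4 GINS subunits, and Cdc45 gave the largest difference among the 48 genes. Cdc45, which rides with the ring as part of the active helicase, had values of 10.14, 9.81, 9.89, 10.23 and 10.10 in Mes1 to Mes5. In Epi1 to Epi5 they were 9.08, 9.12, 8.79, 8.62 and 8.42. All Mes lines lay well above all Epi lines, with 10.03 ± 0.18 against 8.80 ± 0.30 (mean ± SD, n = 5 each). The difference of 1.23 (SE 0.17) is 2.34-fold, with an adjusted p of 0.00104 in limma. It was 1.14 with like lines averaged (adjusted p 0.0238) and 0.95 within slide 2, where no gene passed. The probe maps to chr16:18793399-18794880 on mm9, and the median gene of chromosome 16 differed by 0.19. Mcm10, which helps to fire the helicase, was at 12.22, 12.57, 12.53, 12.77 and 12.70 in Mes lines and at 11.64, 12.70, 11.98, 11.54 and 11.42 in Epi lines. Epi2 lay inside the Mes range and the other Epi lines lay below it. Its difference of 0.70 (SE 0.24, adjusted p 0.0494, limma) passed in 2 of the 10 fits without a line and was -0.05 within slide 2. Gins1 had a difference of 0.45 (adjusted p 0.0696, limma) and Gins2 one of -0.57 (adjusted p 0.0505). Neither passed in the main fit. Gins2 passed in several alternatives, among them 75th percentile scaling (-0.60, adjusted p 0.0377, limma) and the deposited values (-0.56, adjusted p 0.0485). With like lines averaged it did not pass (-0.55, adjusted p 0.176). Gins1 passed only with normexp background correction, with array weights and without Mes1. Gins3 and Gins4 differed by -0.09 and 0.05.

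Cdc7 is the kinase that triggers the loaded ring and Dbf4 is the subunit that activates it, and both were higher in Mes lines. Cdc7 values were 10.57, 10.04, 10.29, 10.57 and 9.98 in Mes lines and 9.86, 9.77, 9.33, 9.51 and 9.63 in Epi lines. The groups did not overlap, and the difference was 0.67 (SE 0.17, adjusted p 0.0150, limma). Its dimmer probes gave 0.42 and 0.41 and did not pass. Dbf4 values were 10.02, 9.89, 10.52, 10.22 and 10.16 in Mes lines and 9.81, 9.52, 9.25, 9.78 and 8.98 in Epi lines. Again the groups did not overlap, although Epi1 and Epi4 came close to Mes2. Dbf4 differed by 0.69 (SE 0.19, adjusted p 0.0231, limma), and missed the threshold without Mes3 or without Epi3 (highest adjusted p 0.0586). A dim second probe of Dbf4 differed by 0.01. The reported probes map to chr5:107413096-107413155 and chr5:8397489-8397548 on mm9.

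The cyclins E, which carry cells into S phase with Cdk2, gave 1 called gene of the pair, which was lower in Mes lines. Ccne1 values were 11.79, 10.97, 11.17, 10.88 and 11.09 in Mes lines and 12.01, 11.62, 12.08, 12.18 and 11.62 in Epi lines. Mes1 alone reached the Epi range, and the difference was -0.72 (SE 0.20, adjusted p 0.0223, limma). A dimmer probe of Ccne1 gave -0.89, and the call was lost without Mes2, Mes4, Epi3 or Epi4, with adjusted p-values up to 0.0563. Ccne2 had the widest spread of all 48 genes, with 8.35, 7.71, 8.27, 8.95 and 9.35 in Mes lines (SD 0.64). Its Epi values were 7.68, 8.95, 8.40, 8.19 and 7.74, and the difference of 0.33 did not pass (adjusted p 0.483, limma).

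**Figure D2:**
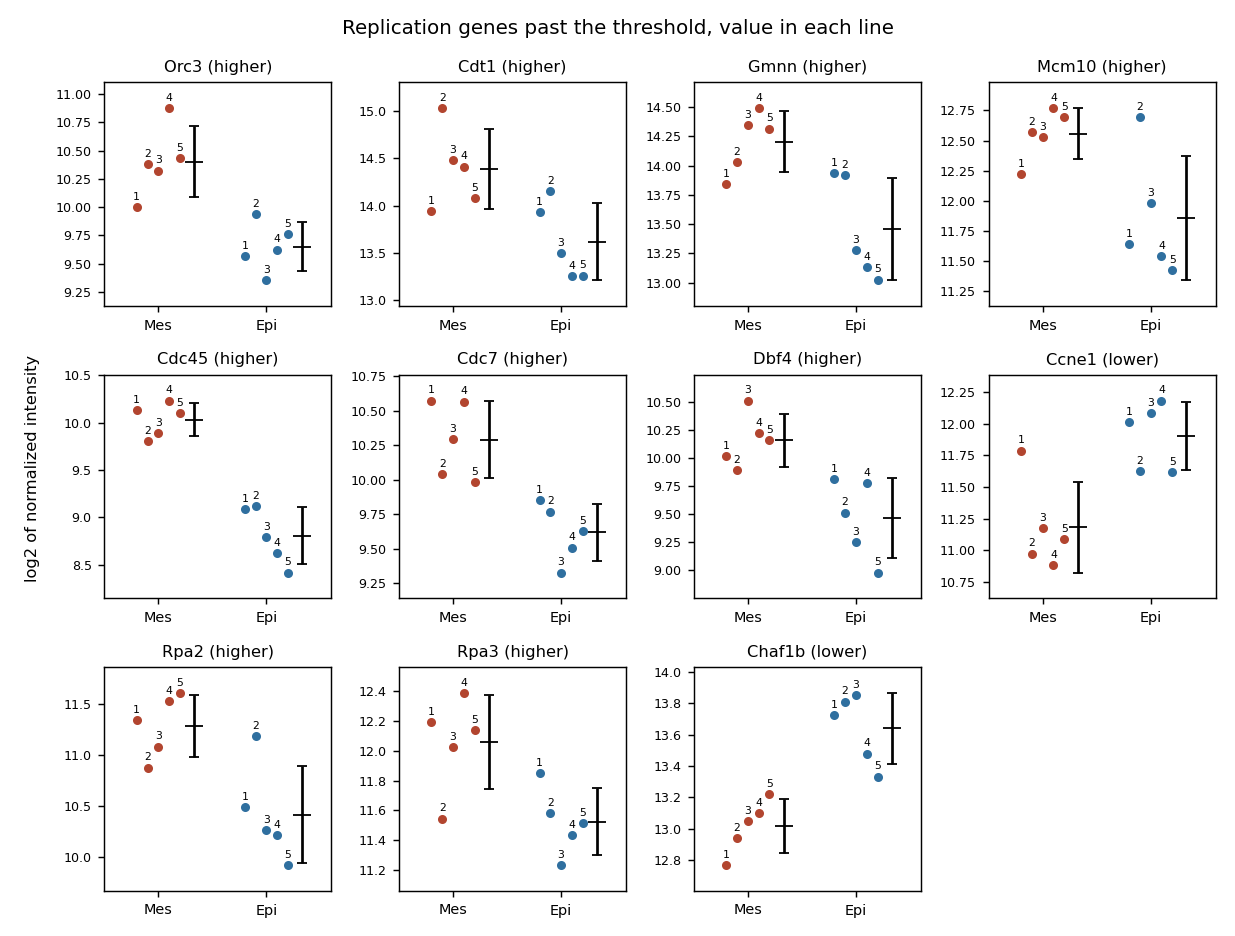
Level of the 11 replication genes past the threshold in each line (y axis, log2 of normalized intensity, with its own range in every panel, so levels of different genes are not comparable; points are numbered by line and bars are mean ± SD, n = 5). Orc3, Cdc45, Cdc7 and Dbf4 are higher in every Mes line than in any Epi line, Chaf1b is lower in every Mes line, and in the other 6 panels the groups overlap.

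Synthesis of the new strands, by polymerase alpha with primase, which lays the primers, and by polymerases delta and epsilon, which extend them, gave 0 of 8 called genes. An unadjusted p under 0.05 was reached by 1 of the 8. This was Prim1, the catalytic primase subunit, which differed by -0.62 (SE 0.23, adjusted p 0.0703, limma). It did pass as lower after 75th percentile scaling (-0.72, adjusted p 0.0379), with array weights and without Epi1. It lies on chromosome 10, where the median gene differed by -0.46, which leaves -0.15. Pola2, the second subunit of polymerase alpha, differed by 0.61 (adjusted p 0.129, limma), and a dimmer probe of it gave 0.69 with an adjusted p of 0.0180. The other 6 genes lay between -0.03 for Pole2 and 0.31 for Pole.

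The sliding clamp Pcna and its loader, replication factor C, also gave 0 of 6 called genes, with differences from -0.07 for Rfc5 to 0.33 for Rfc4. Pcna values were 14.09, 14.19, 14.65, 14.93 and 15.18 in Mes lines and 14.34, 14.66, 14.35, 14.14 and 14.02 in Epi lines. Mes4 and Mes5 lay above all Epi lines, while Mes1 and Mes2 lay among the lowest. The difference of 0.30 (SE 0.23, adjusted p 0.342, limma) was 0.06 after 75th percentile scaling. Fen1 and Lig1, which trim and seal Okazaki fragments, differed by -0.19 and 0.23 and did not pass.

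Single-stranded DNA at the fork is covered by replication protein A, and 2 of its 3 subunits were higher in Mes lines. Rpa2 values were 11.34, 10.88, 11.08, 11.53 and 11.61 in Mes lines and 10.49, 11.19, 10.27, 10.22 and 9.92 in Epi lines. Epi2 lay within the Mes range and the other Epi lines below it. The difference was 0.87 (SE 0.24, adjusted p 0.0227, limma), and its second probe gave 0.93. Within slide 2, Rpa2 differed by 0.12. Like Orc3 it lies on chromosome 4, which leaves 0.32 above the chromosome median, and on that chromosome the median gene of Epi2 stood 0.09 above its mean over lines, against -0.30 to -0.41 in the other Epi lines. Rpa3 values were 12.19, 11.54, 12.02, 12.39 and 12.14 in Mes lines and 11.85, 11.58, 11.23, 11.43 and 11.52 in Epi lines. Mes2 lay among the Epi lines, and the difference of 0.53 (SE 0.18, adjusted p 0.0485, limma) passed in only 2 of the 10 fits without a line. Rpa1, the large subunit, differed by -0.11 and did not pass.

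The enzymes that supply deoxynucleotides, ribonucleotide reductase (Rrm1 and Rrm2) and thymidylate synthase (Tyms), gave 0 of 3 called genes. Rrm2 values were 11.81, 10.52, 10.98, 11.89 and 11.71 in Mes lines and 11.68, 11.67, 11.46, 11.22 and 10.58 in Epi lines. Mes2 and Epi5 were lowest in their groups, and the group means differed by 0.06 (SE 0.31, adjusted p 0.903, limma). Tyms differed by -0.23 and -0.29 on its bright probes, while a dimmer probe gave 0.71 with an adjusted p of 0.00910, so its direction depends on the probe. Chaf1b, a subunit of the assembly factor that places histones on new DNA, was lower in Mes lines. Its values were 12.77, 12.94, 13.05, 13.10 and 13.22 in Mes1 to Mes5 and 13.72, 13.81, 13.85, 13.48 and 13.33 in Epi1 to Epi5. Every Mes line lay below every Epi line, and the difference was -0.62 (SE 0.15, adjusted p 0.0120, limma). With like lines averaged it was -0.67 with an adjusted p of 0.0607. The probe maps to chr16:93906269-93906329 on mm9, and a probe near the background, above it on 7 of 10 arrays, gave 0.34 and did not pass. The partner subunit Chaf1a differed by 0.09.

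Of 45 further replication genes, 11 were called higher and 0 lower in Mes lines by limma. The share called, all of it higher, was 24.4%, against 15.7% of all genes called higher and 28.4% called in either direction. Of the 45 differences, 31 were positive and 14 negative, with a median of 0.31. Without Mes4, Epi3 or Epi4 the count was 7. Topbp1, which recruits the helicase activators, differed by 1.43 (SE 0.18, adjusted p 0.000713), from 12.24, 12.28, 12.62, 12.27 and 12.27 in Mes lines to 11.35, 11.21, 10.70, 10.69 and 10.56 in Epi lines. Mtbp, a partner of the firing factor treslin, differed by 1.29 (SE 0.14, adjusted p 0.000421). Tipin, a fork protection factor, and Dnmt1, which copies DNA methylation to the new strand, differed by 1.21 and 1.02. Topbp1, Tipin and Dnmt1 lie on chromosome 9, where no replication gene of the 48 lies and where the median gene was higher by 0.71, while Mtbp lies on chromosome 15 with a median of 0.07. Orc1, the largest subunit of the origin complex, differed by 0.94 with an adjusted p of 0.134.

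Among 17 E2F and retinoblastoma family genes, 3 were called higher in Mes lines (17.6%, against 15.7% of all genes) and 0 lower. Tfdp2, a binding partner of E2F factors on chromosome 9, differed by 1.92 (SE 0.23, adjusted p 0.000524, limma). E2f2, on chromosome 4, differed by 1.65 (adjusted p 0.0263) and by -0.05 within slide 2, and Lin54, a subunit of the DREAM complex, by 0.52 (adjusted p 0.0195). Without Epi2 the count was 6 and without Epi3 it was 1. E2f1 and Rb1 differed by 0.07 and -0.16 and did not pass, and where the Rb1 probe lies relative to the floxed exons is not given, so it checks no genotype. Among 25 mitosis genes 8 were higher and 0 lower, with a median difference of 0.52. The 32.0% called, all of them higher, stands against 15.7% of all genes called higher and 28.4% called in either direction. The count of mitosis genes rose to 15 without Epi2. It fell to 6 without any 1 of Mes3, Mes4, Mes5, Epi3, Epi4 and Epi5, and to 1 with like lines averaged. Ccnb2, a mitotic cyclin on chromosome 9, differed by 1.44 (SE 0.17, adjusted p 0.000490, limma), and the proliferation marker Mki67 by 0.35 (adjusted p 0.217).

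The replication genes varied from line to line inside both groups about as much as other genes. Their median SD was 0.29 among Mes and 0.33 among Epi lines, against 0.32 and 0.30 for all genes. Which line was high was less evenly spread. With each gene set to 0 at its mean over the 10 lines, the median replication gene stood at 0.18 in Epi2 and at -0.36 in Epi5. Epi1 stood at 0.07, Epi3 at -0.15 and Epi4 at -0.21. In the Mes lines the level was 0.01, -0.09, 0.09, 0.19 and 0.18 from Mes1 to Mes5, so that Epi2 matched the highest Mes lines and Epi5 was the lowest of the 10. Epi2 was the highest Epi line for 26 of 48 genes (54.2%), against 28.9% of all genes, and was lowest for 0 of 48. Epi5 was the lowest for 26 genes (54.2%), against 17.2% of all genes. The mitosis genes had the same lines at their ends, with Epi2 highest for 22 of 25 and Epi5 lowest for 17 of 25. Epi2 is also the Epi array that shared a slide with Mes lines, and the part of slide in this order was not tested.

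**Figure D3:**
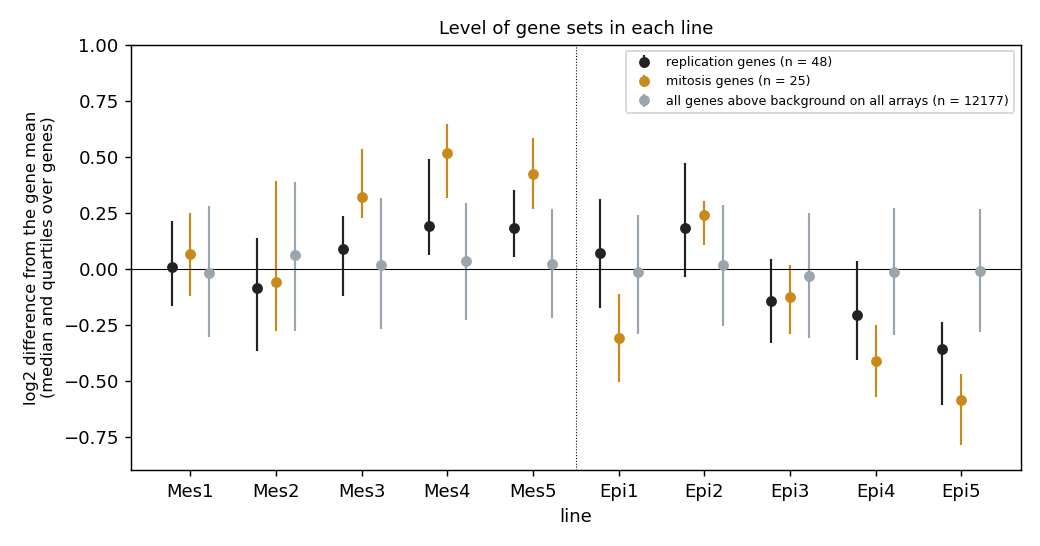
Median level of 48 replication genes, 25 mitosis genes and 12177 genes above background on all arrays in each line (y axis, log2 difference from the gene's mean over 10 lines; bars are quartiles over genes, not errors). Replication genes run from -0.36 in Epi5 to 0.19 in Mes4, with Epi2 at 0.18, while all genes stay near 0.

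Among Mes lines, Mes2 was lowest for 22 of 48 genes (45.8%), against 19.2% of all genes. In the origin complex, loading and ring roles, a grouping made after the values were seen, Mes2 was the highest Mes line for 5 of 14 genes (Orc2, Orc5, Cdt1, Mcm2 and Mcm7) and the lowest for 4. In the other roles it was highest for 0 of 34 and lowest for 18. Over all genes, Mes2 was the highest Mes line for 25.2%. The median level of Mes2 was 0.18 in the former and -0.18 in the latter. In the nucleotide supply role it stood at -0.83, the lowest median of any role in any line. Mes3, whose whole profile was nearest to Mes2, stood at 0.20 and 0.04.

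**Figure D4:**
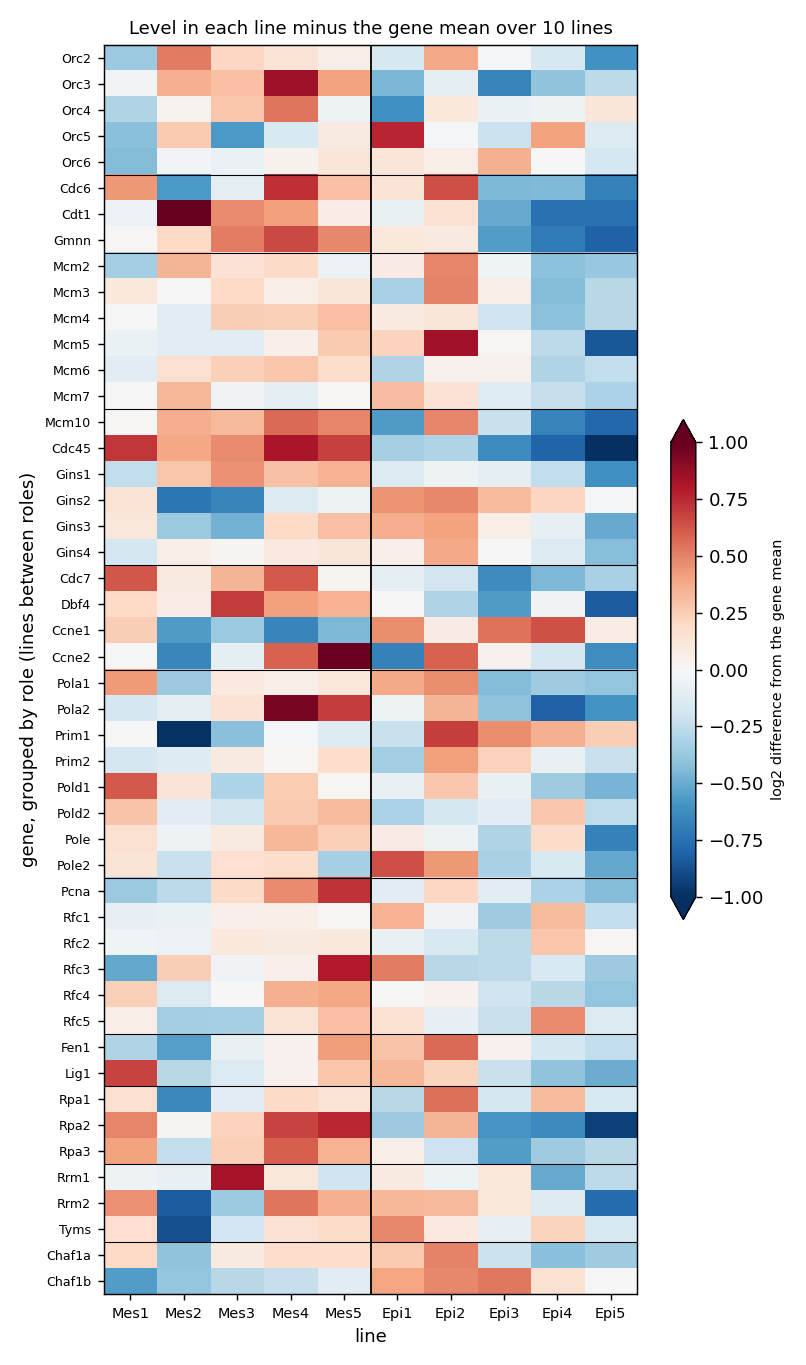
Level of each replication gene (rows, grouped by role) in each line (columns), as the log2 difference from the gene's mean over the 10 lines (colours stop at -1 and 1). Cdc45 is red in all Mes and blue in all Epi lines, Epi2 is mostly red, Epi5 mostly blue, and Mes2 is blue for Rrm2, Tyms and Prim1.

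The order of the Epi lines differed by chromosome. Of the 47 replication genes with a chromosome in the file, 10 lie on chromosome 5 (Orc5, Mcm7, Cdc7, Dbf4, Pole, Rfc1, Rfc2, Rfc3, Rfc5 and Tyms). For 10 of these 10, Epi1 or Epi4 was the highest Epi line, against 7 of the 37 genes elsewhere (18.9%). Epi4 lay above Epi2 for 8 of 10, against 2 of 37 (5.41%). Over all genes of chromosome 5, Epi1 or Epi4 was the highest Epi line for 73.8%, against 37.6% of genes elsewhere, and Epi4 lay above Epi2 for 83.7%, against 45.1%. Their median was 0.29 in Epi4, 0.14 in Epi1, 0.07 in Epi5, -0.11 in Epi3 and -0.21 in Epi2. The replication genes on chromosome 5 had Epi1 (0.23) and Epi4 (0.20) at the top as well, but Epi5 (-0.28) rather than Epi2 (-0.07) at the bottom. Off chromosome 5, the median replication gene was at 0.34 in Epi2 and -0.30 in Epi4. The pattern was picked after the values were seen and was not tested. Against its own chromosome's median, the median difference between Mes and Epi lines was 0.17 over the 47 genes, from 0.20 before.

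**Figure D5:**
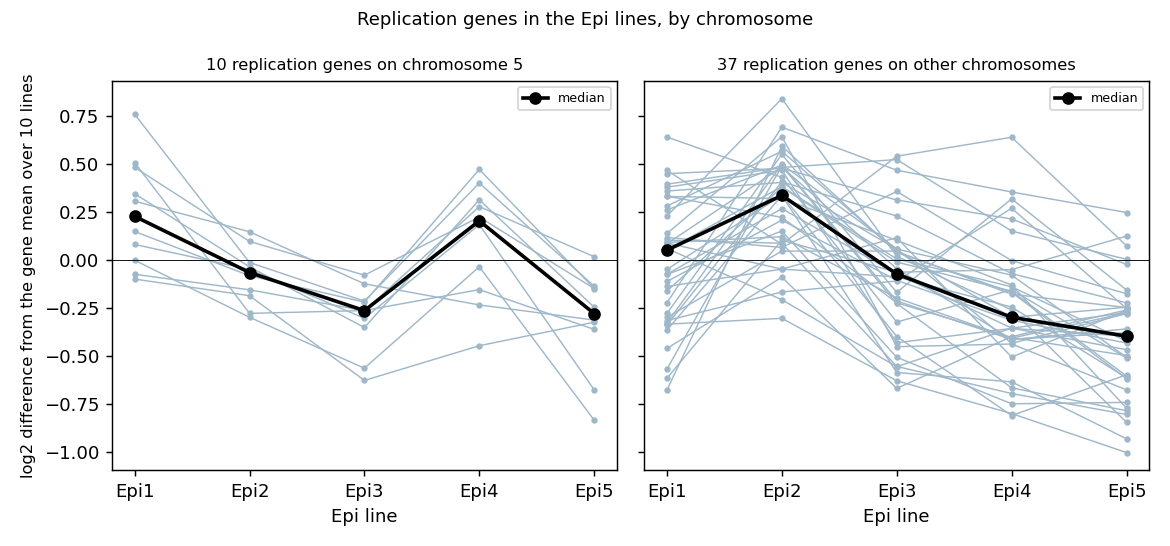
Level of replication genes in the 5 Epi lines, for the 10 genes on chromosome 5 (left) and the 37 on other chromosomes (right; y axis, log2 difference from the gene's mean over 10 lines; thin lines are genes and the thick line is the median). On chromosome 5 the medians peak in Epi1 (0.23) and Epi4 (0.20), and elsewhere they peak in Epi2 (0.34).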

How the data were processed

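Total RNA of 5 Mes and 5 Epi lines was labelled with Cy3 and hybridised to 1-colour Agilent arrays (labels' protocols). Scanner files as deposited hold intensity values from Agilent Feature Extraction 10.7, per the submitters' processing notes, background-subtracted within each array and unscaled between arrays, per the file headers. They also hold spot and background median intensity and flags, per the file headers. The authors deposited log2 values, quantile-normalized in GeneSpring 11.0 per the series text, in 2 tables that were identical (largest difference 0, column medians 5.06). Against the scanner values their columns correlated at 0.9996 to 0.9999, so scale and direction are known. They were used as an alternative and for gene names (34893 probes, 33405 matched in RefSeq by Entrez ID). Probe positions are those of the files, on mm9, and no mm9 annotation was used here.

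From the scanner files, control spots (1639) and spots with outlier flags (46 to 87 per array) were left out and spots of a probe averaged. Values were quantile-normalized with a floor of 1, as log2. Probes well above background on all 5 arrays of a group (24473) entered linear models (lmFit, then eBayes) of limma 3.58.1 under R 4.3.3, two-sided, with Benjamini-Hochberg adjustment over these probes and a threshold of 0.05. The brightest tested probe stood for each gene. The script was tested on simulated data. The genes and lists were chosen with earlier results of these data known. Values in every line are given for genes past the threshold, the 4 with the widest spread, and Mcm2, Mcm6, Pcna and Rrm2 as landmarks. From the other lists up to 8, 4 and 4 genes could be named. Alternatives covered scaling, background correction (normexp on median signals, offset 50), filters, slide, replicate block, array weights, probe averaging and left-out lines. The averaging of like lines and the fit on slides 1 and 3 were added after seeing the data.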

Additional observations from a re-analysis of the deposited data

Results flagged for a closer look

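In 5 of 98 sets of 5 lines (48 replication genes in each group, plus the line medians of each group), 1 line stood apart from the other 4 by Dixon's test, with a gap over 0.71 of the range, which chance alone does in about 1 of 20 sets. Orc4 was low in Epi1, at 9.772 with the nearest line at 10.325 (log2 of normalized intensity). Mcm7 was high in Mes2, at 14.464 with the nearest line at 14.139. Gins1 was low in Mes1, at 10.935 with the nearest at 11.453. Rfc3 was high in Epi1, at 10.763 with the nearest at 10.101. Chaf1a was low in Mes2, at 11.125 with the nearest at 11.616. None of these 5 genes passed the test between Mes and Epi lines.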

How the results depend on the processing

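With slide as a fixed block, 0 replication, 0 further replication, 0 E2F and 0 mitosis genes passed in limma (2, 7, 1 and 2 at an unadjusted p under 0.05), and 97 of all genes did. On slide 2 alone every count was 0, over all genes too (2, 6, 1, 1 and 2285 unadjusted). In both the median difference of replication genes was -0.10, and Mcm10 (-0.047) and E2f2 (-0.0459), which had passed, changed sign, as did 14 of the 37 replication genes that had not passed. In both fits the difference is that of Epi2 against Mes3 and Mes4. On slide 2 alone, Epi2 is taken to vary like these Mes lines. With slide as a fixed block, the variance also came from the lines on the other slides. Slides 1 and 3 alone gave 4 replication, 7 further and 1891 of all genes. With like lines averaged the counts were 1, 4, 1 and 1 in the 4 lists and 989 over all genes, and with array weights 18, 18, 9 and 17 in the lists. Replicate numbers did not pair the lines (correlations of deviations 0.03 to 0.05). With the replicate block 5 replication genes passed, 4 higher and 1 lower, beside 2947 of all genes. Leaving out 1 line gave 4 to 12 replication, 7 to 15 further, 1 to 6 E2F, 6 to 15 mitosis and 2663 to 4108 of all genes, and medians of 0.14 to 0.26. Over the other alternatives run these counts stayed within 1.5 times. Cdc45 passed in all but the fits with slide as a fixed block and on slide 2 alone (highest adjusted p 0.286). Over all alternatives, 1498 of 1675 values of the 67 named genes stayed on their side of the threshold, 150 no longer passed with the same direction, 23 passed newly, and the 4 above turned sign after having passed. Sign changes of genes that had not passed are not among these 4. Of the 37 such replication genes, 7 changed sign with like lines averaged, 5 after 75th percentile scaling and at most 5 without 1 line. The causes were not tested.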
